A study of Mus musculus with 16 samples.

Results

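High Runner (HR) line 7 is one of the 4 mouse lines bred for high voluntary wheel running, and it was compared here with the other 3 HR lines, lines 3, 6 and 8. Its members were the 2 line 7 libraries of the 16 in the series, 1 from male and 1 from female mice, and they were set against the 6 libraries of the other HR lines after both count tables had been joined by gene. All lines began from the outbred Hsd:ICR stock, and the 4 Control lines, lines 1, 2, 4 and 5, came from the same base without selection. Each library was the vomeronasal organ (VNO) RNA of 3 mice of 1 line and 1 sex, taken at 12 weeks of age in generation 88, and the mice shared no parent. The male and the female pool of a line thus held different animals, and a gene that moved the same way in both was seen in separate mice. A selected line is nevertheless a single breeding population, so line 7 is 1 line against 3, and p-values here measure the spread between these libraries.

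Line 7 had 39650899 male and 44171726 female reads on genes, within the range of the HR libraries (26301664 to 46384480). Sex was fitted as a covariate, and it coincides with the count table, since male and female libraries were deposited apart. Libraries of lines 1, 2, 7 and 8 were closer to each other than to those of lines 3 to 6 in the male table, where the root mean square of the log2 difference over 14828 genes was 0.408 to 0.456 within the first set and 0.575 to 0.812 between the sets. In the female table the ranges overlapped (0.432 to 0.582 within, 0.517 to 0.928 between). Line 8 was the HR line nearest to line 7 in both sexes (0.443 in males, 0.468 in females), and line 3 was the farthest (0.760 and 0.687). Control line 2 was nearer to line 7 than any HR line, at 0.419 in males and 0.432 in females. The part of that grouping in the results was not tested, and differences from line 8 alone are given for the Padi and the class II A genes. The VNO markers were present and level: Omp, the olfactory marker protein of mature sensory neurons, stood at 2319 (male) and 1999 (female) CPM in line 7 against 1595 to 2582 in the other HR libraries. Gnai2, the G protein of apical neurons, stood at 1407 and 977 CPM against 847 to 1328, and Gnao1, that of basal neurons, at 408 and 408 against 320 to 510 (edgeR adjusted p = 0.927 for Omp, 0.884 for Gnai2 and 0.927 for Gnao1). CPM is the count of a gene scaled to a fixed library size, here with TMM factors over all 16 libraries.

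The vomeronasal organ detects pheromones and other social cues through neurons that each express 1 or a few receptors of the V1R family (with Gnai2) or the V2R family (with Gnao1). Some basal neurons also express H2-Mv genes, nonclassical members of the major histocompatibility complex (MHC), while classical MHC class I and class II molecules present peptides to T cells. Several of the genes described below belong to these families or lie among them in the genome. Reads were aligned uniquely and without mismatches to the C57BL/6J-based reference, so reads over a site where a line's own allele departs from the reference were lost. Fewer counted reads and less RNA therefore cannot be told apart, and neither can fewer cells of a type and less RNA per cell.

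Between line 7 and the other HR lines, 11 genes differed at an edgeR quasi-likelihood adjusted p under 0.05 among 16810 genes tested, of which 4 were higher and 7 lower in line 7. That is 0.0654% of the genes tested, and 6.54% of them had an unadjusted p under 0.05. In each of the 11, both line 7 libraries lay beyond all 3 other HR libraries of their sex, and in 8 they also lay beyond all 4 Control libraries of their sex. Over all genes tested, both line 7 libraries were above the other HR libraries of their sex for 8.63% and below for 8.76%, and they lay beyond the libraries of all 7 other lines for 6.03%. No gene was called for an interaction of sex and line 7 (0 by edgeR and 0 by DESeq2), and 61 had an unadjusted edgeR p under 0.05 for it. Each sex has only 1 line 7 library, so the interaction test has little power, and its lack of calls does not show that the sexes agreed. The test of line 7 against the other HR lines takes the 2 libraries of a line as independent. With line as a random effect (limma-voom, correlation within a line 0.537), 3 of the 11 stayed below 0.05 (Padi4, 4930570G19Rik and Vmn1r188) and the adjusted p of the others was 0.106 (Padi2, Casp9) to 0.563 (Gm8801), and with the libraries of a line summed 0 stayed. Leaving out both line 6 libraries left 1 called gene, Padi4, as did leaving out either line 7 library, when the single library left is assumed to vary like the others. Without the male or the female line 7 library, log2 folds kept their direction. They moved little for Casp9 (-1.099 and -1.100) and B3galt5 (-1.89 and -1.75). They moved more for Vmn1r188 (7.10 and 9.15) and Gm8801 (-5.73 and -6.41), which have few or no reads in 1 of the groups. The plot of the called genes shows every library.

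**Figure D1:**
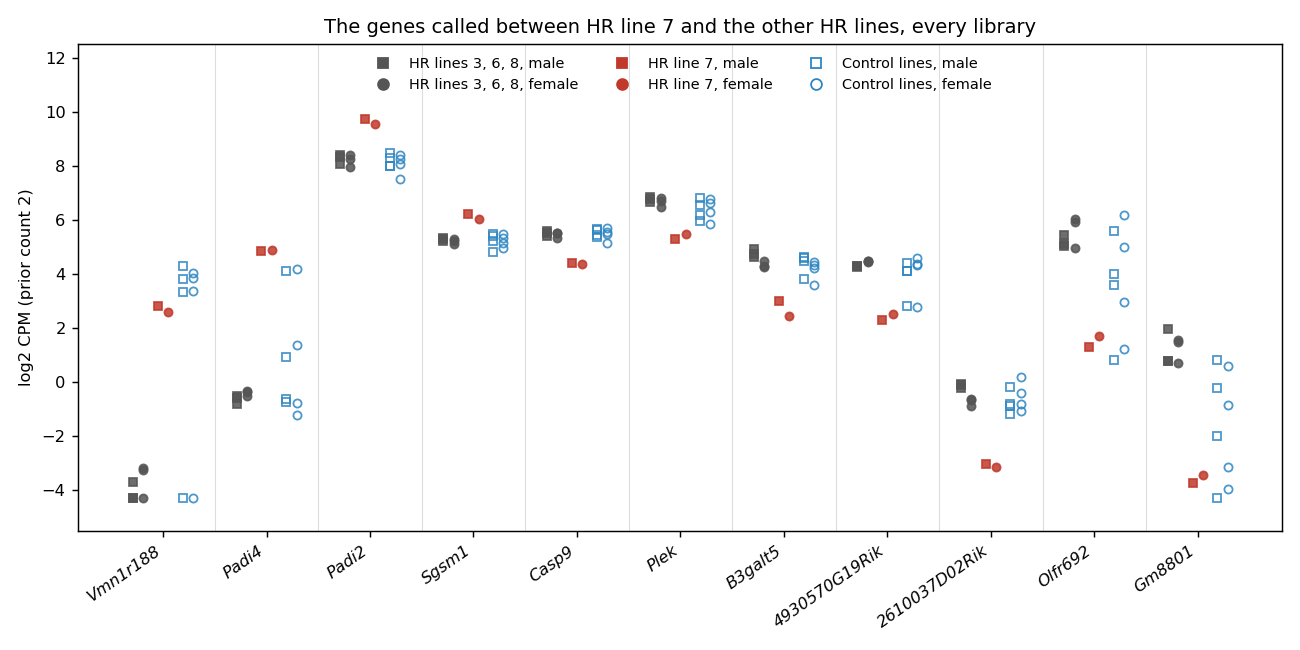
Log2 CPM (prior count 2, y axis) of the 11 genes called between HR line 7 and the other HR lines, one symbol per library, with squares for male and circles for female pools. Line 7 (red) stands apart from HR lines 3, 6 and 8 (grey) in both sexes for each gene, while for Olfr692 and Gm8801 Control lines (blue, open) reach as low as line 7, and for Vmn1r188 they lie on both sides of it.

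The 4 higher genes included 2 of the peptidylarginine deiminases, calcium-dependent enzymes that convert arginine residues of proteins to citrulline. Padi4 (ENSMUSG00000025330, minus strand, chr4:140745865-140774236), best known for citrullination of histones in neutrophils, was measured at 28.6 CPM in the male and 29.6 CPM in the female pool of line 7. The male pools of lines 3, 6 and 8 had 0.519, 0.620 and 0.647 CPM of Padi4 and the female pools 0.733, 0.715 and 0.646. The difference was 5.50 ± 0.14 (log2 fold change ± SE, n = 2 against 6 libraries, edgeR adjusted p = 7.00e-06), and against line 8 alone it was 5.36 in males and 5.41 in females. Only line 7 among the HR lines had Padi4 above 1 CPM, but Control line 2 had 17.3 (male) and 18.2 (female) CPM and Control line 1 had 1.86 and 2.51, while Control lines 4 and 5 had 0.382 to 0.591. In RPKM, the deposited unit that allows for gene length, Padi4 was 9.83 and 10.8 in line 7.

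Padi2 (ENSMUSG00000028927, plus strand, chr4:140906344-140952586), the family member of brain, muscle and glands, lies 160.5 kb from Padi4, counted between their lower ends. It had 852 CPM in the male and 748 CPM in the female pool of line 7. In males the other HR lines had 266, 318 and 335 CPM and in females 244, 301 and 334. The increase was 1.42 ± 0.14 on the log2 scale (edgeR adjusted p = 0.0199), and the Control libraries had 181 to 350 CPM, so both line 7 pools exceeded all 14 other libraries. Against line 8 alone the difference was 1.35 in males and 1.17 in females on the log2 scale. At 187 (male) and 174 (female) RPKM in line 7, Padi2 was the most expressed of the family per length. Padi2 shares bases with Gm13031, annotated on the opposite strand, and whether counting used strand is not given in the sources used here.

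The other deiminase genes lie in the same cluster and did not pass the test. Padi6, the oocyte member, had 1.87 and 2.11 CPM in line 7 against 0.511 to 1.74 in the other HR libraries (adjusted p = 0.783), and Padi1, an epidermal member, had 3.65 and 2.72 against 1.13 to 4.04 (adjusted p = 0.855). Padi3 did not pass the filter on low counts. Neutrophils, in which Padi4 is well known, were looked at through 10 marker genes, 5 of which passed the filter. Elane had 0 reads in both line 7 libraries together and Mpo had 2, and both were near 0 in the other HR libraries too (2 and 7 reads in all). In the female pool of line 7, S100a8 (3.77 CPM) and S100a9 (4.57 CPM) were above every other HR library (at most 2.79 and 4.25), whereas in the male pool they had 1.07 and 1.02. The markers tested summed to 942 and 963 CPM in line 7 against 1453 to 5718 in the other HR males and 599 to 4282 in the females, and nearly all of that was Ltf, lactoferrin, which glands also secrete. The part of neutrophils in the Padi4 values was not tested.

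Casp9 (ENSMUSG00000028914, plus strand, chr4:141793612-141815976), the initiator caspase of the mitochondrial path of apoptosis, lies 1.05 Mb from Padi4 and moved the other way. Line 7 had 21.1 CPM in males and 20.4 CPM in females. The other HR lines had 42.2, 45.8 and 48.3 CPM in males and 39.8, 45.4 and 46.0 in females, and the Control libraries 34.8 to 52.2. Casp9 thus fell by 1.10 on the log2 scale (SE 0.10, edgeR adjusted p = 0.0151), below all other lines in both sexes. Casp9 shares 1015 bases with Cela2a and with Ctrc, annotated on the opposite strand.

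Between 1 Mb before Padi4 and 1 Mb after Casp9, 39 genes were tested. Of these the 3 were called and 7, including the 3, had an unadjusted p under 0.05 (6.54% of all genes did). The stretch was drawn around Padi4, Padi2 and Casp9, and these 3 are counted in the shares that follow. Those shares therefore do not measure the other genes of the stretch alone. Both line 7 libraries were above the other HR libraries for 6 of the 39 and below for 4 (15.4% and 10.26%, against 8.63% and 8.76% of all genes), and 29 did neither. With the spread between pools, in a second fit described with the receptors, 17.9% of the 39 were called (3 higher, 4 lower) against 3.93% of all genes. Among these, Igsf21 and Klhdc7a are the last 2 of a run of 4 called neighbours (Iffo2, Aldh4a1, Klhdc7a and Igsf21), and in both line 7 was close to line 8. Igsf21 had 9.96 and 6.44 CPM in line 7, 6.63 and 6.81 in line 8 and 1.17 to 2.26 in lines 3 and 6, and Klhdc7a had 2.48 and 4.30 in line 7, 3.47 and 3.04 in line 8 and 13.1 to 26.4 in lines 3 and 6. Directions differed along the stretch, with Padi4 and Padi2 higher and Casp9 lower. The plot of the stretch shows these differences by distance.

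**Figure D2:**
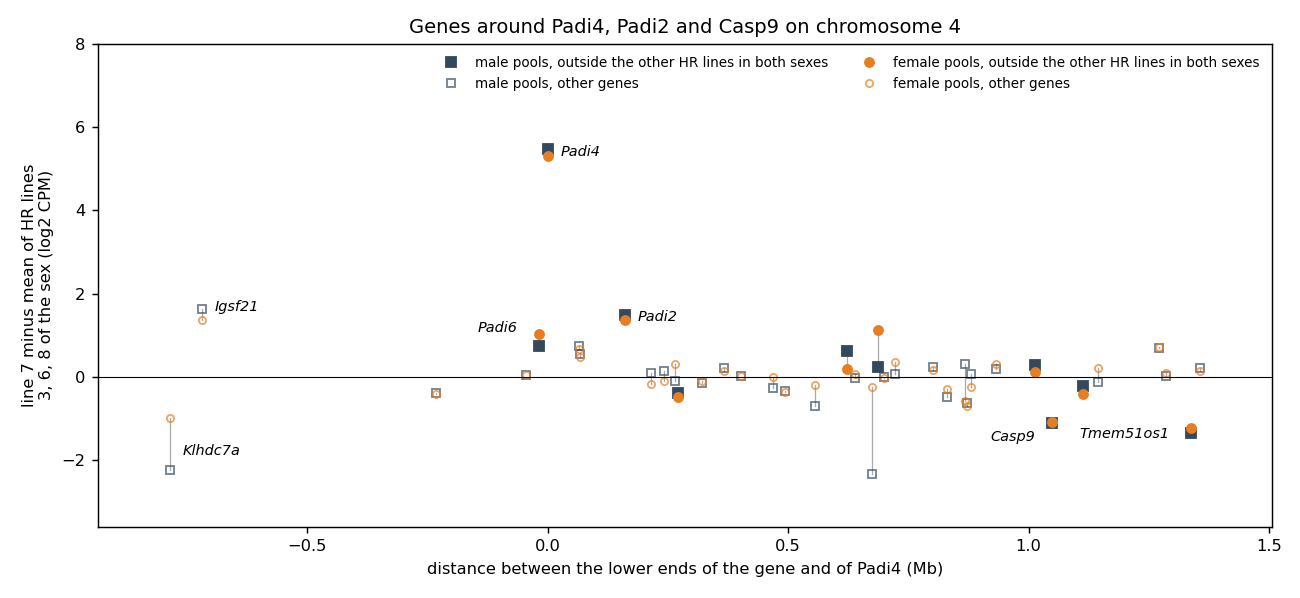
Difference between line 7 and the mean of HR lines 3, 6 and 8 of the same sex (log2 CPM, y axis) for the 39 genes tested around Padi4, Padi2 and Casp9, against the distance between the lower ends of each gene and Padi4 (Mb). Filled symbols are the genes with both line 7 libraries outside the other HR libraries, and a grey line joins the male (square) and female (circle) value of a gene. Padi4 stands at 5.48 in males and 5.31 in females.

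The sequences before the starts of both deiminase genes are shown because both were called higher in line 7. In Control line 2, Padi4 had 17.3 and 18.2 CPM, while Padi2 had 350 and 338 CPM, far below its 852 and 748 in line 7. Whether the 2 genes share regulation was not tested. They are the 150 bases before the RefSeq start in the GRCm38.p6 reference, not the sequence of these lines, with the letters TATAAA and CCAAT (either strand, so also ATTGG) in capitals. Padi4 is at chr4:140774204-140774353 (minus strand) and Padi2 at chr4:140906210-140906359 (plus strand). Gene spans in this report are from GENCODE, whose starts differ from the RefSeq starts used for the windows. A part of each of these windows, with the TATAAA of Padi4, therefore lies inside the GENCODE span of its gene.
Padi4: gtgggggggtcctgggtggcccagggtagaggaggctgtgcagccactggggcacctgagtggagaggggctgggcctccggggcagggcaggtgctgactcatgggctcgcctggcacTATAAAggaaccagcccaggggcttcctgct
Padi2: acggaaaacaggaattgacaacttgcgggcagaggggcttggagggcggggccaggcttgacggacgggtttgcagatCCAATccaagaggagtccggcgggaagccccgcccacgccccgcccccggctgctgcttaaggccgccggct
The Padi4 window holds TATAAA, its first base at -31 from the start, and the Padi2 window holds CCAAT, its first base at -72. TATAAA is found in 4.84% and CCAAT on either strand in 24.5% of the 32851 RefSeq windows of the same length.

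Vmn1r188 (ENSMUSG00000069299, chr13:22084440-22095916), a V1R pheromone receptor of the chromosome 13 cluster, was the only vomeronasal receptor called. It had 285 reads in the male and 284 reads in the female pool of line 7 (6.94 and 5.98 CPM), against 0 to 2 reads in each of the other HR libraries. That was 271 times the rate of the other HR lines, from 569 against 5 reads (95% exact interval 116 to 839, which covers counting error only), with an edgeR adjusted p of 0.00647. Control line 1 had 19.4 and 16.4 CPM, line 2 13.8 and 14.5, and line 4 10.02 and 10.34, all above line 7, while Control line 5 was at 0. Reads were thus near 0 in 4 of the 8 lines, HR lines 3, 6 and 8 and Control line 5. Its annotated neighbour Vmn1r189 had 7.08 and 6.32 CPM in line 7 against 2.68 to 9.602 in the other HR libraries, and the groups overlapped.

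Over the receptor families, 282 of the 336 vomeronasal receptor genes in the tables passed the filter, and 35 had an unadjusted p under 0.05 (12.4%, against 6.54% of all genes). Both line 7 pools were above the other HR pools for 35 of the 158 Vmn1r genes tested and below for 1, for 23 and 14 of the 118 Vmn2r genes, and for 0 and 1 of the 6 Fpr genes. These are 22.1% above and 0.633% below for the Vmn1r genes, and 19.5% above and 11.9% below for the Vmn2r genes, beside 8.63% and 8.76% of all genes. A receptor with few reads can pass the filter through the line 7 libraries alone, and the part of the filter in these shares was not tested. The V1R genes had a median log2 difference of 0.15 and the V2R genes of 0.03, against 0.00 over all genes tested. The summed receptor level of line 7 (8786 CPM in males, 8411 in females) lay within that of the other HR libraries of each sex (6599 to 8890 and 7599 to 9304).

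A planned second fit took each HR line as a group, so that the spread was that between the male and the female pool of a line and no longer included the spread among lines 3, 6 and 8. It called 1.76% of the genes tested as higher and 2.17% as lower in line 7 than the mean of the other HR lines (296 and 365 genes, all 11 among them). Of the receptors it called 21 as higher and 3 as lower, and of the Vmn1r genes 14 as higher and 0 as lower. Without line 6 the same fit called 184 genes, 4 Vmn1r genes among them, and without line 3 it called 919, with 21 Vmn1r genes higher and 2 lower. Because lines 3, 6 and 8 count only through their mean in it, it also calls genes at which line 7 lies among them. Adjusted p-values from it are named as those with the spread between pools.

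Named receptors beyond Vmn1r188 are given as examples chosen after their values were seen. Vmn1r85 had 124 and 110 CPM in line 7 against 49.9, 67.3 and 71.5 in the other HR males and 67.7, 51.2 and 69.5 in the females (log2 difference 0.90 ± 0.16, adjusted p = 0.192, and 0.0207 with the spread between pools). Vmn1r45 had 72.0 and 61.1 CPM against 21.2 to 52.8 (adjusted p = 0.716, and 0.00735 with the spread between pools). Both receptors also stood above all Control libraries of their sex. Vmn2r75 had 7.33 and 11.5 CPM against 2.46 to 5.27 (adjusted p = 0.192, and 0.0177 with the spread between pools), and its V2R copies are many, so single genes of that cluster are uncertain.

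Family C receptors are V2Rs expressed broadly in basal neurons beside another V2R, and they lie together on chromosome 3. Vmn2r4 (chr3:64383044-64415368) had 60.7 and 63.0 CPM in line 7 against 98.6, 119 and 94.6 in the other HR males and 126, 101 and 119 in the females. Its log2 difference was -0.82 ± 0.13, with an adjusted p of 0.118, and 0.0217 with the spread between pools. Vmn2r3, Vmn2r5 and Vmn2r6 also lay below the other HR pools in both sexes, whereas Vmn2r1, Vmn2r2 and Vmn2r7 overlapped, so 4 of the 7 family C genes lay below (8.76% of all genes did) and 0 above. None of the 7 passed the main edgeR test, and Vmn2r4 alone was called with the spread between pools. An unadjusted p under 0.05 was found for 4 of the 7 (6.54% of all genes had one).

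That receptor group sits in a stretch of 2.14 Mb from Mme to Kcnab1, singled out after its values were seen, in which 8 of the 14 genes tested lay below the other HR pools in both sexes and 0 above, and 3 (Mme, Vmn2r4 and Kcnab1) were called with the spread between pools. Those 8 are 57.1% of the stretch, against 8.76% of all genes. Kcnab1 (chr3:65109384-65378223), a regulatory beta subunit of voltage-gated potassium channels, had 1.27 and 1.54 CPM in line 7 against 14.8 to 18.6 in the other HR males and 10.64 to 31.6 in the females. The Control libraries had 5.67 to 47.9 CPM of Kcnab1, and the log2 difference from the other HR lines was -3.68 ± 0.47 (adjusted p = 0.0818, and 0.00435 with the spread between pools). Mme (chr3:63241537-63386030), the membrane metalloendopeptidase neprilysin, had 78.5 and 71.2 CPM against 138 to 292 in males and 127 to 226 in females. Its log2 difference was -1.33 ± 0.32 (adjusted p = 0.362, and 0.00166 with the spread between pools), below all 14 other libraries.

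Olfr692 (ENSMUSG00000073906, chr7:105368230-105369355), an odorant receptor known from vomeronasal neurons, fell by 3.98 on the log2 scale (SE 0.34, edgeR adjusted p = 0.0116). It had 2.39 (male) and 3.16 (female) CPM in line 7, against 34.7, 42.9 and 32.3 in the other HR males and 59.7, 64.6 and 30.8 in the females. Control line 2 was as low (1.72 and 2.27 CPM), Control line 1 had 12.04 and 7.77, and Control lines 4 and 5 had 15.9 to 71.4. In this gene, as in Padi4, line 7 and Control line 2 were therefore on the same side of the other HR lines. The 2 genes tested next to Olfr692, Fam160a2 and Cnga4, a subunit of the olfactory cyclic nucleotide-gated channel, also lay below the other HR pools. Fam160a2 had 99.9 and 94.9 CPM against 123 to 176 (adjusted p = 0.399, and 0.0343 with the spread between pools), and Cnga4 had 52.7 and 45.4 CPM against 61.4 to 83.1 (adjusted p = 0.363, and 0.0238 with the spread between pools). The 42 odorant receptors tested, of 1140 in the tables, summed to 45.0 and 59.2 CPM in line 7 against 76.8 to 84.5 in the other HR males and 82.0 to 101 in the females, and the lower sum is that of Olfr692. The 41 others summed to 42.6 CPM in males (33.9 to 49.9 in the other HR males) and 56.0 in females (30.6 to 51.3). Of the 42, 28.6% lay above the other HR pools in both sexes and 4.76% below (12 and 2 genes), against 8.63% and 8.76% of all genes. Their median log2 difference was 0.31. With the spread between pools 9.52% of them were called (3 higher, 1 lower), against 3.93% of all genes. A gene near the floor can pass the filter on low counts through the line 7 libraries alone, which favours the higher side. The part of the filter in these shares and in the median was not tested.

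Sgsm1 (ENSMUSG00000042216, minus strand, chr5:113243220-113310786), a modulator of small GTPase signalling expressed in neurons, had 74.6 (male) and 65.7 (female) CPM in line 7. All the other HR libraries lay between 34.1 and 39.7 CPM and the Control libraries between 28.1 and 44.6. The increase was 0.90 ± 0.08 on the log2 scale (edgeR adjusted p = 0.0115). Wscd2, the second gene along from it, had 67.7 and 62.9 CPM against 35.1 to 56.7 (adjusted p = 0.702, and 0.0311 with the spread between pools).

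B3galt5 (ENSMUSG00000074892, plus strand, chr16:96235801-96319859), a galactosyltransferase that extends glycan chains, had 7.99 and 5.43 CPM in line 7 against 26.8, 24.4 and 29.8 in the other HR males and 19.3, 21.9 and 18.9 in the females. It fell by 1.82 on the log2 scale (SE 0.14, edgeR adjusted p = 0.00647), and the Control libraries had 12.1 to 24.5 CPM, so line 7 was lowest of all 8 lines in both sexes. Plek (ENSMUSG00000020120, minus strand, chr11:16971206-17052381), pleckstrin, a protein kinase C substrate of platelets and leukocytes, had 38.5 and 44.5 CPM in line 7 against 99.7, 115 and 109 in males and 112, 104 and 89.7 in females. It fell by 1.34 on the log2 scale (SE 0.12, edgeR adjusted p = 0.0151), and the Control libraries had 57.6 to 112 CPM. The macrophage markers, 10 of 10 tested, summed to 149 and 153 CPM in line 7, within the range of the other HR libraries (99.9 to 545 in males, 137 to 378 in females). Plek overlaps genes on the opposite strand (Cnrip1 and Gm12014).

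The 3 remaining called genes are non-coding or pseudogenes and were all lower. The lincRNA 4930570G19Rik (chr3:156546753-156561746) had 4.80 and 5.69 CPM in line 7 against 19.05 to 22.4 in all other HR libraries, and Control line 1 had 6.91 and 6.83 while the other Control lines had 16.9 to 24.2. Its log2 difference was -1.98 ± 0.11 (edgeR adjusted p = 0.00107). It lies beside Negr1, a neuronal adhesion protein, which had 2.99 and 3.81 CPM in line 7 against 6.31 to 9.38 (adjusted p = 0.192, and 0.0203 with the spread between pools). Reads of the lincRNA 2610037D02Rik (chr15:96134819-96284495) were few, 3 and 3 in line 7 against 16 to 37 (edgeR adjusted p = 0.0445), and it shares 22815 bases with the transcript 4833422M21Rik on its own strand. Gm8801 (chr17:35947246-35952297), an unprocessed pseudogene in the MHC, had 1 and 2 reads in line 7 against 43 to 124 in the other HR libraries (edgeR adjusted p = 0.0475). The rate of the other HR lines was 69.7 times that of line 7 (95% exact interval 23.7 to 339, counting error only), and Control lines 1 and 5 were near 0 as well, at 0 to 0.197 CPM.

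The 249 other genes within 1 Mb of a called gene were set beside all genes tested. Of them 12.05% had an unadjusted p under 0.05 against 6.54% of all genes, 9.24% were called with the spread between pools against 3.93%, and 22.9% had both line 7 libraries outside the other HR libraries against 17.4%. The MHC enters these shares, since 81 of the 249 are neighbours of Gm8801. They hold 10 of the 30 with an unadjusted p under 0.05 and 9 of the 23 called with the spread between pools. Called with the spread between pools, 11 runs of 3 or more neighbouring genes were found, and with the main test 0. The longest were 5 genes of the class II region on chromosome 17 (H2-Ab1, H2-Aa, H2-Eb1, H2-Eb2 and H2-Ea-ps) and 5 on chromosome 11 (Ttyh2, Dnaic2, Kif19a, Btbd17 and Gprc5c).

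Many genes of the MHC lay outside the other HR lines in both line 7 pools. In the 3.51 Mb between H2-K2 and H2-M2 (chr17:33974659-37483552), 137 genes were tested and 1, Gm8801, was called, while 26 had an unadjusted p under 0.05 (6.54% of all genes did). Of these 137 genes, 16.1% were called with the spread between pools (12 higher, 10 lower) against 3.83% of all other genes and 4.69% of the rest of chromosome 17. At least 2-fold from the other HR mean in each sex, and outside their libraries, were 13.1% of the region's genes, whereas it was 1.61% of all genes tested (270 genes). Without line 6 the region's share called with the spread between pools was 8.76% (against 1.09% of all genes), and without line 3 or without line 8 it was 20.4% (against 5.47% and 6.79%). Genes of the MHC exist in many near-identical copies and alleles, so values of single members are uncertain under unique, mismatch-free alignment.

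**Figure D3:**
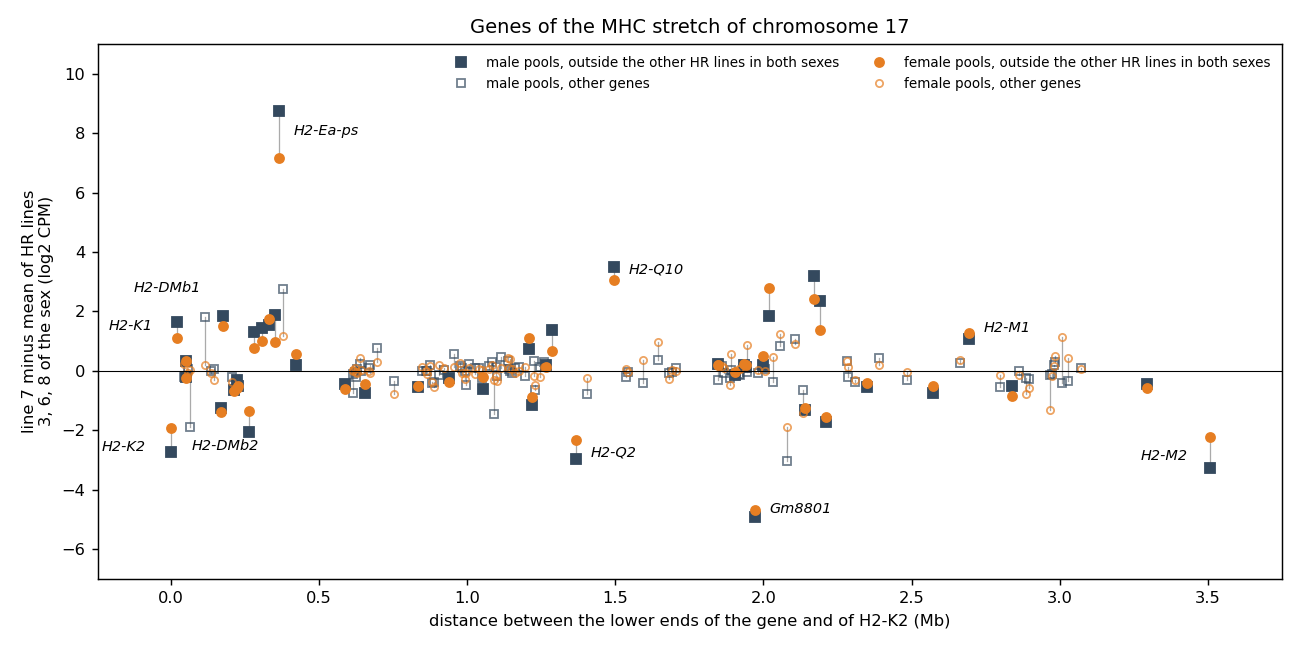
Difference between line 7 and the mean of HR lines 3, 6 and 8 of the same sex (log2 CPM, y axis) for the 137 genes tested in the MHC stretch of chromosome 17, against the distance between the lower ends of each gene and H2-K2 (Mb). Filled symbols mark genes with both line 7 libraries outside the other HR libraries. H2-Ea-ps is the highest (8.74 in males, 7.17 in females) and Gm8801 the lowest (-4.91 and -4.68).

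Of 34 genes of antigen presentation in the tables, 30 passed the filter and 0 were called. An unadjusted edgeR p under 0.05 was found for 15 of the 30 (6.54% of all genes had one). With the spread between pools 9 were called higher and 5 lower, against 1.76% and 2.17% of all genes. Of the 9 higher, 6 were class II genes. H2-Ea-ps (chr17:34341959-34344645), the class II E alpha chain, annotated as a pseudogene in the reference strain, had 220 (male) and 157 (female) CPM in line 7. The other HR libraries had 0, 3.69 and 0.673 CPM in males and 0.0367, 3.31 and 4.41 in females. Control line 1 had 29.5 and 46.0 CPM, and the other Control libraries had 0 to 2.88. Its read rate in line 7 was 93.4 times that of the other HR lines (95% exact interval 84.8 to 103, counting error only). The log2 difference was 6.64 ± 1.04 (adjusted p = 0.119, and 0.00115 with the spread between pools).

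H2-Aa (chr17:34282744-34287823), the class II A alpha chain, had 165 and 129 CPM in line 7 against 55.3, 62.9 and 63.1 in the other HR males and 57.0, 59.8 and 78.2 in the females. The log2 difference was 1.23 ± 0.15 (adjusted p = 0.0605, and 0.00435 with the spread between pools), and all Control libraries were lower than both line 7 pools (54.0 to 87.4). Its partner H2-Ab1, the A beta chain, had 167 and 124 CPM against 61.8 to 91.3 (log2 difference 1.03 ± 0.18, adjusted p = 0.157, and 0.00987 with the spread between pools). Against line 8 alone the log2 difference was 1.38 in males and 0.72 in females for H2-Aa, and 1.13 and 0.44 for H2-Ab1.

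H2-Eb1, the E beta chain, differed among the other HR lines themselves: it had 190 and 140 CPM in line 7, 134 and 119 in line 3, 14.9 and 15.0 in line 6, and 138 (male) and 39.5 (female) in line 8 (adjusted p = 0.813). H2-Eb1 shares bases with the antisense gene Gm20513. H2-Eb2 had 13.0 and 7.41 CPM in line 7 against 2.12 to 5.45 (adjusted p = 0.339, and 0.0265 with the spread between pools). Cd74, the invariant chain that escorts class II molecules, had 950 and 649 CPM against 498 to 862, and Ciita, the transactivator of class II genes, had 21.3 and 22.3 against 19.6 to 23.95, and both overlapped (adjusted p = 0.850 and 0.957). Class II molecules are made chiefly by macrophages, dendritic cells and B cells. The macrophage sums are given with Plek, and the T and B cell markers tested (8 of 9) summed to 3.65 and 5.31 CPM in line 7 against 4.06 to 13.8 in the other HR males and 4.98 to 5.65 in the females. The range of the macrophage sum came mostly from Lyz2 (20.9 to 410 CPM in the other HR libraries, 53.3 and 69.3 in line 7), and Cd68 lay below every other HR library, at 10.08 and 10.13 CPM against 12.2 to 15.6. The part of these cells in the class II values was not tested.

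**Figure D4:**
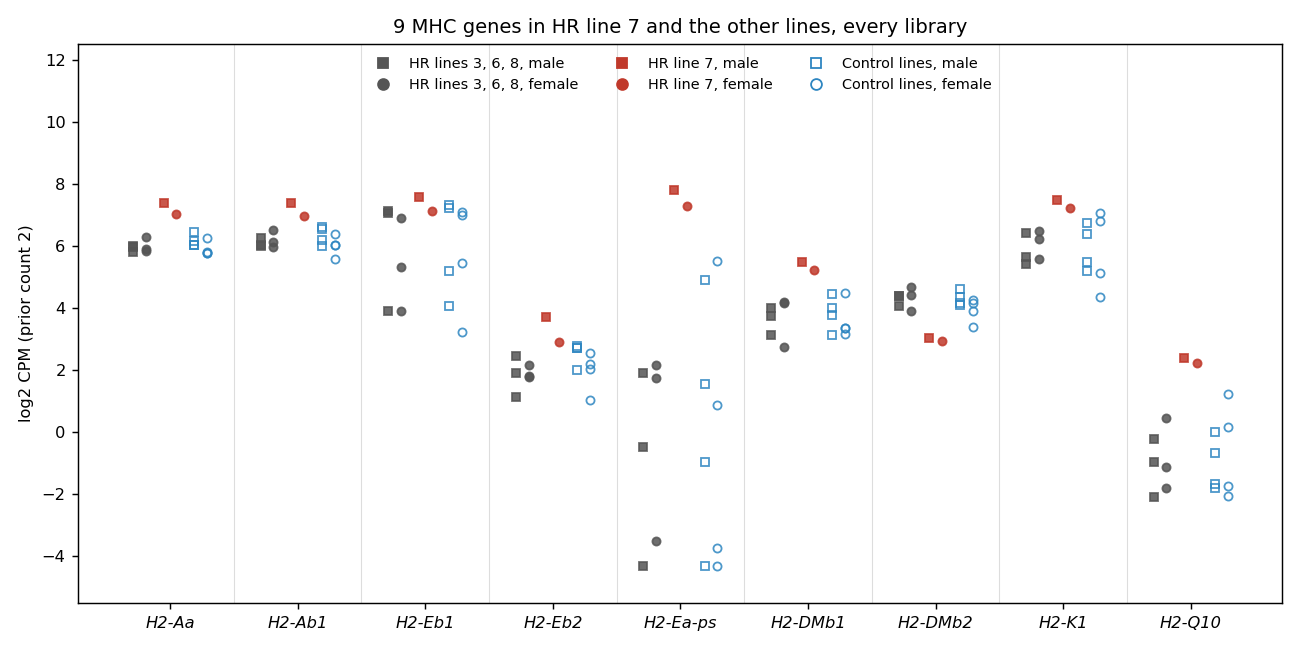
Log2 CPM (prior count 2, y axis) of 9 MHC genes, one symbol per library, with squares for male and circles for female pools. Line 7 (red) lies above HR lines 3, 6 and 8 (grey) in both sexes except for H2-DMb2, where it lies below, and H2-Eb1 and H2-Ea-ps spread widely among the grey and the blue (Control) symbols.

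H2-DM proteins load peptides onto class II molecules, and the 2 beta chain genes moved apart. H2-DMb1 had 44.1 and 37.1 CPM in line 7 against 8.66, 15.9 and 13.4 in the other HR males and 6.71, 17.7 and 18.2 in the females (log2 difference 1.60 ± 0.36, adjusted p = 0.298, and 0.00363 with the spread between pools). H2-DMb2 had 8.13 and 7.64 CPM in line 7 against 16.8, 20.8 and 20.7 in males and 14.8, 21.4 and 25.5 in females (log2 difference -1.34 ± 0.23, adjusted p = 0.153, and 0.00458 with the spread between pools). The genes are close copies, and how reads fall between them is uncertain, but their sum was also highest in line 7, at 52.3 and 44.7 CPM against 25.5 to 36.7 in the other HR males and 21.5 to 43.7 in the females. H2-DMa, the alpha chain, had 24.5 and 20.9 CPM against 20.7 to 30.4 and overlapped.

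The reference sequences before 4 of the class II genes are shown because H2-Aa and H2-DMb1 lay above the other HR pools in both sexes while the copy H2-DMb2 lay below them, with H2-Eb1 for comparison. None of the 4 was called in the main test. They are again the 150 bases before the RefSeq start in GRCm38.p6, with CCAAT or ATTGG in capitals, at chr17:34287824-34287973 (minus strand), chr17:34305717-34305866, chr17:34153041-34153190 and chr17:34145099-34145248 (plus strand). The whole H2-DMb2 window lies inside the GENCODE span of its gene, which begins at 34143307. The H2-DMb1 window reaches past the GENCODE start of its gene, at 34153072.
H2-Aa: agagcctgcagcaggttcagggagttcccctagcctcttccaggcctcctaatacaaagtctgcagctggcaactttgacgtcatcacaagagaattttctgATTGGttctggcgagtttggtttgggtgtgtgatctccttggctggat
H2-Eb1: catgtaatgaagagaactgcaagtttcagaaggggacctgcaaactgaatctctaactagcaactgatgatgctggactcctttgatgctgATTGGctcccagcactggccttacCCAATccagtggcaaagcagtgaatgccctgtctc
H2-DMb1: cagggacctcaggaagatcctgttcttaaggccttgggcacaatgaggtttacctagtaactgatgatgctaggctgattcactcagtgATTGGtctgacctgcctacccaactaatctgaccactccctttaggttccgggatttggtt
H2-DMb2: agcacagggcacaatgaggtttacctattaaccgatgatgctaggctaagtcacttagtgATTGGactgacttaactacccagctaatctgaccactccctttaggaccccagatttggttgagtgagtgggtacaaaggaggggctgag
All 4 windows hold ATTGG, the letters of the Y box of class II promoters, as do 24.5% of all windows on either strand, so H2-DMb2 holds them too.

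Class I genes went both ways. H2-K1, a classical class I heavy chain, had 178 and 148 CPM in line 7 against 49.8, 85.8 and 42.7 in the other HR males and 47.5, 90.0 and 74.4 in the females (log2 difference 1.34 ± 0.30, adjusted p = 0.294, and 0.0118 with the spread between pools). H2-Q10, a secreted class I molecule, had 5.23 and 4.63 CPM against 0.186 to 1.32 (adjusted p = 0.211, and 0.00166 with the spread between pools). H2-K2 and H2-Q2 lay below the other HR pools, with H2-K2 at 0.195 and 0.211 CPM against 0.358 to 3.35. H2-Q2 had 0.803 and 0.905 CPM against 1.43 to 18.4, and the lowest Control library had 0.581. B2m, the light chain common to class I molecules and coded on chromosome 2, had 506 and 501 CPM against 331 to 511 and overlapped. The peptide transporter subunits Tap1 and Tap2 were lower in line 7 than in all 14 other libraries, with Tap1 at 15.8 and 15.4 CPM against 18.96 to 30.1 and Tap2 at 35.3 and 38.4 against 43.5 to 67.4 in the other HR libraries (adjusted p = 0.547 for both, and 0.0227 and 0.0218 with the spread between pools). The whole list summed to 3057 and 2460 CPM in line 7, above the other HR libraries (1771 to 2377 in males, 1729 to 2206 in females) and the Control libraries (1603 to 2432).

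Of the 9 H2-Mv genes, all tested, 0 were called and 3 had an unadjusted p under 0.05 (6.54% of all genes did). With the spread between pools 1 was called higher and 2 lower, against 1.76% and 2.17% of all genes. H2-M1 had 154 and 174 CPM in line 7 against 61.7, 50.7 and 123 in the other HR males and 65.8, 55.1 and 107 in the females (adjusted p = 0.597, and 0.00214 with the spread between pools), and Control libraries had 78.8 to 318, so line 7 lay within the Control range. H2-M10.1 and H2-M10.6 were called lower with the spread between pools (0.0476 and 0.0238, with main adjusted p of 0.791 and 0.758). The H2-Mv sum (848 and 843 CPM) lay within that of the other HR libraries.

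The male and the female pools of line 7 were compared over the whole transcriptome. Across genes, which are not independent replicates, Pearson's r between the male and the female difference of line 7 from the other HR lines was 0.61 over 16810 genes and 0.67 over the 14915 averaging at least 1 CPM in line 7 or in the other HR lines. Of 557 genes that were at least 2-fold and outside in the male pools, 91.9% had the same sign in the female pools (66.2% of all genes tested had the same sign in both), 51.0% lay outside on the same side there, and 32.1% were also 2-fold. The background for lying outside in the female pools on a given side was 19.8% (above) and 19.5% (below), and in the male pools 24.6% and 22.9%. Of 343 genes chosen in the female pools, 93.0% had the same sign in the males and 71.7% lay outside on the same side. The genes chosen in males had a median difference of 1.43 on the log2 scale there and of 0.88 in females. The plot of both differences shows the 11 called genes near the diagonal. They were called from both pools together, which favours that place, so it is no separate check of them.

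**Figure D5:**
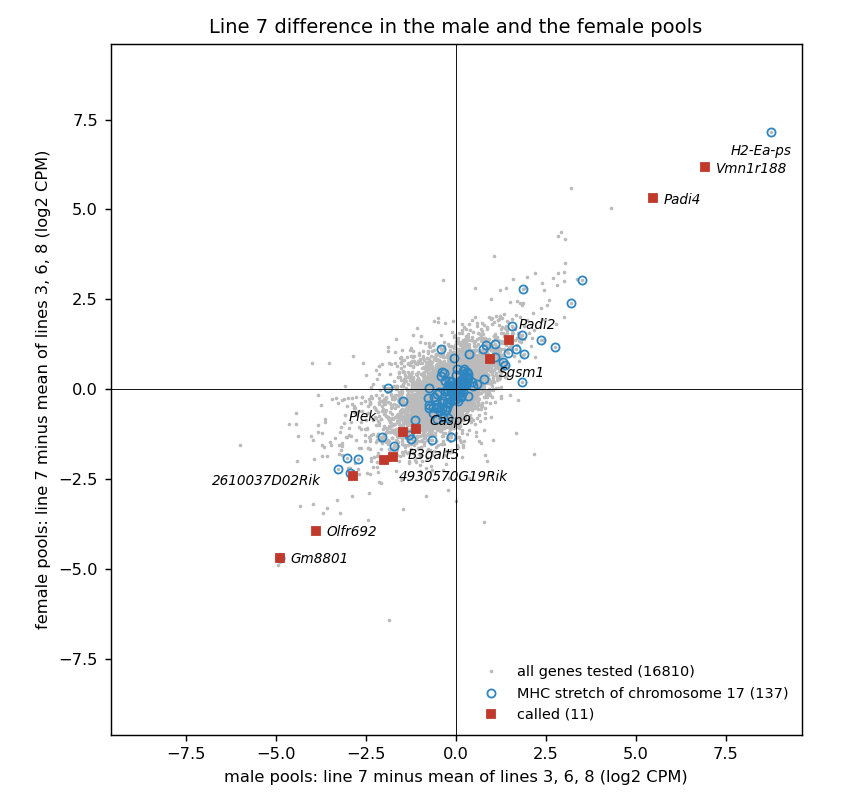
Difference of line 7 from the mean of HR lines 3, 6 and 8 (log2 CPM) in the male pools (x axis) and the female pools (y axis), one point per gene. Grey points are the 16810 genes tested, blue circles the 137 genes of the MHC stretch and red squares the 11 called genes. The called genes were chosen from both pools together, so their equal signs follow from the choice.

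Of the other cell type lists, the progenitor and immature neuron sum lay above the other HR libraries in both sexes, and the blood sum below. The blood list, with 2 genes tested, summed to 3.87 and 2.59 CPM in line 7. The other HR males had 5.76 to 20.1 CPM and the females 3.04 to 5.50. Progenitor and immature neuron markers, 11 of 11 tested, summed to 1041 and 1043 CPM in line 7 against 736 to 956 in the other HR males and 727 to 883 in the females. Their median log2 difference was 0.41. Of the 11, 3 lay above the other HR pools in both sexes (8.63% of all genes did). An unadjusted p under 0.05 was found for 2 of them (6.54% of all genes), Stmn2 and Ebf2. Stmn2, a microtubule regulator of growing neurites, had 147 and 126 CPM against 83.3 to 107 (adjusted p = 0.113, and 0.0128 with the spread between pools), and Ebf2 had 339 and 408 against 228 to 317. Both exceeded all 7 other libraries of their sex in each table, whereas the dividing-cell genes Mki67 and Top2a overlapped. Apical neuron, supporting cell and glial markers had 0 members with an unadjusted p under 0.05, and the secreted lipocalins, the most variable list, summed to 13560 and 13160 CPM in line 7 against 2152 to 189000. Of 368 zinc finger genes, 348 were tested, and 15 of these had an unadjusted p under 0.05 (6.54% of all genes did). Both line 7 pools were above the other HR pools for 29 of the 348 and below for 42, beside 8.63% and 8.76% of all genes.

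The number of genes that set line 7 apart was not the largest among the HR lines. Applied to each HR line in turn, the count of genes at least 2-fold from the mean of the other 3 and outside their libraries in both sexes was 699 for line 3, 417 for line 8, 270 for line 7 and 230 for line 6. In line 7 they were 106 higher and 164 lower, and 139 of the 270 also lay beyond all Control libraries. Chromosome 17 held 36 of those with a position (24 higher), 4.07% of its genes tested, the largest share of any chromosome. Of the 36, 18 lay in the MHC stretch described above. The rest of chromosome 17 had a share of 2.41%, beside 2.31% on chromosome 6 and 2.22% on chromosome 5.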

How the data were processed

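Pooled VNO RNA was made into rRNA-depleted directional libraries and read as 75-nt single ends. Per the methods and the submitters' processing notes, the authors aligned the reads with STAR 2.6.1d to GRCm38/mm10, keeping unique alignments without mismatches, and deposited raw counts per gene for the male and the female libraries, beside RPKM values from Cufflinks. The counting tool, the annotation and the use of strand are not given in the sources used here. The deposited counts were joined by gene symbol (24407 genes), and positions were taken from GENCODE for GRCm38. Rows of the male table that name no gene (unmapped, 16.09% to 17.72% of a library, and outside genes, 16.66% to 18.53%) were left out. RPKM served an alternative and levels per length.

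The main test was edgeR 4.0.16 (TMM, filterByExpr with a minimum count of 10, quasi-likelihood F test, sex and line 7 in the model, 8 HR libraries), with Benjamini-Hochberg adjusted p and a threshold of 0.05. The study used Cuffdiff, which needs alignments. The SE is the log2 fold change divided by the root of F. DESeq2 1.42.0, limma 3.58.1, other filters and left-out libraries were the alternatives. Named genes were the called genes with both pools outside (at least 1 CPM, up to 12 a direction), called list members, runs of called genes, and Omp, Gnao1 and Gnai2; 2610037D02Rik and the uncalled genes were named after their values were seen. The comparison, lists and rules were chosen with earlier results of these data known. Intervals and counts of reads cover counting error only.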

Additional observations from a re-analysis of the deposited data

Results flagged for a closer look

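Among 28 checks of single libraries (the named genes in the 6 other HR and the 8 Control libraries), 1 value stood far from the rest of its group: Omp in the female pool of Control line 5, at 10.31 on the log2 CPM scale, with the next lowest Control library at 10.86. Chance gives about 1 in 20 such values. That library was also the shallowest, with 15998552 reads on genes, and it enters no test of line 7 against the other HR lines.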

How the results depend on the processing

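The count of 11 called genes rested on how the spread among lines was modelled. It was 214 with DESeq2 (all 11 among them, 212 of the 214 with both pools outside), 661 with the spread between pools of a line, 20 without sex as a term (no replicate block by sex), 3 with limma-voom and line as a random effect, 0 with the libraries of a line summed (edgeR, 1 line against 3, where Padi4 had an adjusted p of 0.0789), and 21 against all 14 other libraries, 6 of the 11 among them. Leaving out one library gave 1 to 13, the lowest without either line 7 library, when Padi4 alone stayed, 5 without either library of line 6 and 6 without the male library of line 8. Without both libraries of line 3, 6 or 8 it was 22, 1 (Padi4) and 159. Counts of non-overlapping genes rose from 2924 to 4589 without line 3, 4039 without line 6 and 7109 without line 8. Such a count cannot fall when fewer libraries are compared. Why the rises differed among the lines left out was not tested. With the spread between pools, and line 6 or line 8 left out (chosen after the data were seen), 184 and 1141 genes were called in place of 661. Of the other planned counts, edgeR with RLE factors (13), no filter (10), the stricter filter (9) and log2(RPKM + 1) (14) stayed within 1.5 times. Each called gene kept its direction in every alternative that gave a value. The highest adjusted p over the alternatives was 0.142 for Padi4 and between 0.999 and 1 for the other called genes. Genes with few reads in line 7 (Gm8801, 2610037D02Rik) are limited by depth.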

Other observations

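Genes outside the lists and the MHC also lay apart in both line 7 pools, and these were chosen after their values were seen. Rps28, a protein of the small ribosomal subunit coded on chromosome 17, had 69.0 (male) and 59.4 (female) CPM in line 7 against 11.4 to 18.4 in the other HR males and 0.843 to 18.4 in the females, and the Control libraries had 1.15 to 25.7 (edgeR adjusted p = 0.569, and 0.0769 with the spread between pools). Tlr1, a Toll-like receptor for bacterial lipopeptides, had 0.974 and 1.03 CPM in line 7 and 1.56 and 1.39 in line 3, against 5.84 to 9.89 in lines 6 and 8 (adjusted p = 0.693, and 0.00304 with the spread between pools), and its neighbour Tlr6 had 0.341 and 0.421 CPM against 0.623 to 5.09. Cyp51, a demethylase of cholesterol synthesis, had 138 and 154 CPM in line 7 against 92.4 to 121, above all Control libraries as well (adjusted p = 0.569, and 0.0333 with the spread between pools).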
